A study of Mus musculus with 12 samples.

Results

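The MCM replicative helicase family was described here over 4 groups of fat samples from mice with and without the clock gene Per2. The members were the 8 genes Mcm2, Mcm3, Mcm4, Mcm5, Mcm6, Mcm7, Mcm8 and Mcm10, each taken as the array transcript that named only that gene. Every member was measured by 1 transcript, out of 35557 transcripts in all, and all 8 stood among the 19933 genes that were tested. The family was chosen by a measured value, the lower Mcm6 intensity in per2-/- than in per2+/+ fat of both depots on these same arrays, so the genotype differences of Mcm6 are given as a description with no test. The other members, called its 7 partners here, were tested, and the question was whether Mcm6 was lower alone or together with them.

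The arrays were single-colour Affymetrix expression arrays hybridised with total RNA. They covered white adipose tissue of per2-/- mice (WAT KO), white adipose tissue of per2+/+ mice (WAT WT), brown adipose tissue of per2-/- mice (BAT KO) and brown adipose tissue of per2+/+ mice (BAT WT), with 3 arrays labelled as biological replicates in each group. All mice were male, 20 weeks old, on chow fed ad libitum and on a cycle of 12 h light and 12 h dark, and they were killed at one common time, with no hour stated. The per2-/- allele is cited by the labels to an earlier description, and they name no Cre driver and no strain.

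The minichromosome maintenance (MCM) proteins are best known as the helicase that opens DNA at replication forks. Mcm2, Mcm3, Mcm4, Mcm5, Mcm6 and Mcm7 form 1 ring, which is loaded onto replication origins by the origin recognition complex with Cdc6 and Cdt1, and which unwinds DNA once Cdc45 and the GINS complex have joined it. In mammalian cells the genes of the ring are known targets of E2F transcription factors, and their transcripts are used as marks of cells able to divide. Mcm8 lies outside the ring and acts with Mcm9 in repair by homologous recombination, and Mcm10, which is not related to the ring subunits in sequence, helps to start unwinding. Mature adipocytes do not divide, and in fat the dividing cells are known to be precursors, endothelial cells and immune cells.

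Promoter sequences are shown because the question was whether these genes moved together. RefSeq promoter entries of mouse build GRCm38.p6, which run from 250 bases before to 50 bases after the annotated start, were found for 7 of the 8 members, and Mcm4 is named only. Each was searched on both strands for the E2F-type letters TTTCCCGC, TTTCGCGC, TTTGCCGC and TTTGGCGC. At least 1 match stood in 5 of the 7 members (Mcm3, Mcm5, Mcm6, Mcm7 and Mcm8), and 2.26% of the 32851 promoters in the table held one. A member was counted if any of its entries held a match, while the share is per promoter. Mcm7 had more than 1 entry, and the one at chr5:138171217-138171516 held no match. Mcm6 had 3 matches, a number reached by 4 promoters of the table (0.0122%), and 2 of its 3 overlapped on opposite strands. Both matches of Mcm5 also overlapped, and Mcm2 and Mcm10 had none in this window. The promoters of Mcm6 (chr1:128359656-128359955, minus strand), Mcm5 (chr8:75109259-75109558, plus strand) and Mcm2 (chr6:88898731-88899030, minus strand) are printed 5′ to 3′ on the strand of the gene, with the E2F-type matches in capitals.
Mcm6: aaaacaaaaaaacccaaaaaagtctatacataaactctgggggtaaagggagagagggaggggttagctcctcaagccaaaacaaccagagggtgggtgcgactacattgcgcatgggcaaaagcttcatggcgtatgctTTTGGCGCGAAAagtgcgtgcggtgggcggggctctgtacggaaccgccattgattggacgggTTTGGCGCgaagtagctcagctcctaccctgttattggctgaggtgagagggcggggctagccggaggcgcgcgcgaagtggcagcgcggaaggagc
Mcm5: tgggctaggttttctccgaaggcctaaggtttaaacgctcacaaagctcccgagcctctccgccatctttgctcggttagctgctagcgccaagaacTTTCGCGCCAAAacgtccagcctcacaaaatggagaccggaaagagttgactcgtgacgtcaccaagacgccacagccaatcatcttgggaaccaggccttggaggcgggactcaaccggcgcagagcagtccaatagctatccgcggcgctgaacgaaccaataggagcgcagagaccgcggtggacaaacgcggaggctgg
Mcm2: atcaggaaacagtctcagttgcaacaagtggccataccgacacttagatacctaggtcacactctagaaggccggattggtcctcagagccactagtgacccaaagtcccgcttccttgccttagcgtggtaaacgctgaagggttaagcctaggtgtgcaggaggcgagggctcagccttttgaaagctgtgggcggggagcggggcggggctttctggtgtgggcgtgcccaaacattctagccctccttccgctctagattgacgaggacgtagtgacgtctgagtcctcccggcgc
The Mcm6 promoter carries an overlapping pair of matches 110 bases before the start and a single match 47 bases before it, the Mcm5 promoter carries 1 overlapping pair, and the Mcm2 promoter is shown as one without a match. A CCAAT box was found in 7 of 7 members, against 37.4% of all promoters, and the E-box letters CACGTG, to which the clock activators bind, were found in 1 of 7 (Mcm8), against 7.15% of all promoters. These matches describe letters in a window and were not measured as binding sites in these samples.

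Array medians over the genes tested were 81 to 89 in the WAT arrays and 66 to 70.3 in the BAT arrays, in the arbitrary intensity units of the PLIER summary. Rank correlations within groups were 0.98 or higher apart from WAT KO replicate 3, which reached 0.954 and 0.956 with the other WAT KO arrays. The WAT genotype differences of the partners are therefore also given without it, as are other values where stated. The targeted gene Per2 had 116, 108 and 172 units in WAT KO, against 116, 99.5 and 122 units in WAT WT, and 138, 151 and 158 units in BAT KO, against 174, 158 and 163 units in BAT WT. It did not pass the test in either depot (adjusted p = 0.614 in WAT and 0.773 in BAT), and the position of its probes relative to the deleted part is not given, so it does not check the labels. Brown adipocyte markers summed to 5430 to 9610 units in WAT KO, 108 to 159 units in WAT WT, 31700 to 34700 units in BAT KO and 31000 to 34500 units in BAT WT, and 6 of the 6 measured ones rose in WAT KO. Ucp1, the uncoupling protein that defines brown fat, was at 2550 to 4450 units in WAT KO and 4.76 to 7.05 units in WAT WT. Markers of the epididymis, 4 of 6 of which were measured, summed to 8940 to 31000 units in WAT KO, with replicate 3 lowest, and to 26600 to 27700 units in WAT WT. In bulk tissue, fewer cells of a type and less RNA per cell cannot be told apart.

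Mcm6, a ring subunit whose human protein also binds the loader Cdt1, was lower without Per2 in both depots. Its intensity was 39.8, 47.4 and 55.7 units in the WAT KO arrays, against 102, 117 and 136 units in the WAT WT arrays. Every WAT KO array was below every WAT WT array, and the KO mean of 47.6 ± 7.96 units was 40.2% of the WT mean of 118 ± 16.7 units (SD, n = 3 each). In brown fat it was 10.4, 16.4 and 10.1 units in the BAT KO arrays, against 53.7, 49.2 and 50.1 units in the BAT WT arrays. Again no KO array reached a WT array, and the KO mean of 12.3 ± 3.58 units was 24.1% of the WT mean of 51 ± 2.38 units (SD, n = 3 each). On the log2(intensity + 16) scale used for all tests, which shrinks the differences of dim transcripts, the genotype differences were -1.08 (SE 0.13) in WAT and -1.25 (SE 0.13) in BAT. The BAT KO intensities lay near or below the added constant of 16, so the linear share in BAT rests on dim values.

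These are the values for which the gene was proposed, so they support nothing further. The authors' deposited tables give Mcm6 signed folds of -2.48 in WAT and -4.14 in BAT, calculated on linear group means. Ordered by level, WAT WT was highest, BAT WT and WAT KO overlapped in the middle, and BAT KO was lowest. The share lost looked larger in BAT on the linear scale, but the difference between the depots' genotype differences was -0.17 (SE 0.18) on the log2(intensity + 16) scale, and it depended on the added constant, at -0.70 with a constant of 1 and 0.11 with a constant of 64. Over all genes, 2.07% had KO arrays entirely below WT arrays in both depots, which is given as background to the rule and not as a test of Mcm6.

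**Figure D1:**
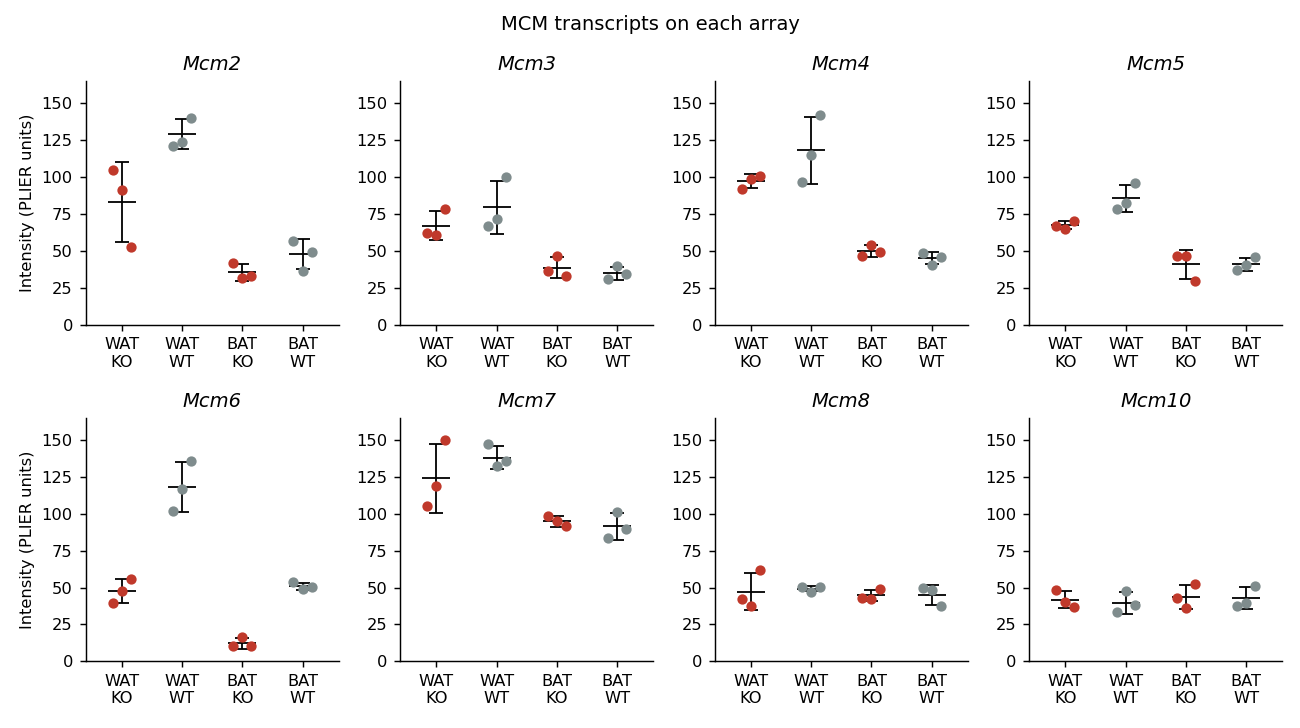
Intensity in PLIER units (linear axis from 0) of each MCM transcript on the 12 arrays, with 1 point per array, the long bar at the group mean and the whiskers at ± 1 SD (n = 3 per group; KO, per2-/-; WT, per2+/+). Mcm6 is lower on all KO arrays than on all WT arrays of the same depot, and the other 5 ring subunits are lower on all BAT arrays than on all WAT arrays of the same genotype, with Mcm8 and Mcm10 overlapping.

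None of the 7 partners passed the test in white fat (limma on log2 intensities, Benjamini-Hochberg adjusted p under 0.05 over all 19933 genes, called a call below), where 2.42% of all genes did. At an unadjusted p under 0.05 there were 2 of 7, Mcm2 and Mcm5, and the authors' deposited p-values, adjusted the same way, also called 0 of 7. The share of all genes at an unadjusted p under 0.05 is not given. Counts at that threshold, here and below, therefore cannot be set against a background. The log2 difference was negative for 6 of the 7, with a median of -0.19, beside a median of -0.01 over all genes. Without WAT KO replicate 3 the count was again 0, while 876 of the 19933 genes were called, against 482 with all arrays. The differences were then -0.34 for Mcm2, -0.29 for Mcm3, -0.25 for Mcm4 and -0.31 for Mcm5. For Mcm7, Mcm8 and Mcm10 they were -0.27, -0.22 and 0.12. The median standard error of a WAT difference over all genes was 0.127, and the 95% interval of each partner is given below.

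Mcm2, whose tail binds histones at the fork, had the most negative difference among the partners in WAT. Its values were 105, 91.5 and 52.4 units in WAT KO, against 121, 124 and 140 units in WAT WT. The KO arrays all lay below the WT arrays, but replicate 3 lay far below the other KO arrays. The difference was -0.59 (SE 0.19, 95% interval -1.01 to -0.17, adjusted p = 0.174), and -0.34 (adjusted p = 0.259) without that replicate. Mcm5, which forms with Mcm2 the gate at which the ring opens, had 67.1, 64.7 and 70.2 units in WAT KO, against 78.4, 82.4 and 96.1 units in WAT WT. Here too the groups did not overlap, at a difference of -0.28 (SE 0.13, 95% interval -0.56 to -0.01, adjusted p = 0.349). These 2 partners were the only ones of the 7 with all KO arrays below all WT arrays in WAT, an arrangement that 10.7% of all genes showed.

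Mcm4, which carries sites phosphorylated when origins fire, had 91.9, 98.9 and 101 units in WAT KO, against 96.3, 115 and 142 units in WAT WT. The lowest WT array lay among the KO arrays, and the difference was -0.22 (95% interval -0.48 to 0.03, adjusted p = 0.442). Mcm3, the subunit through which yeast rings first contact the loader, had 61.8, 60.6 and 78.2 units in WAT KO, against 66.8, 71.6 and 99.9 units in WAT WT. The groups overlapped, with a difference of -0.19 (95% interval -0.51 to 0.13, adjusted p = 0.614). For Mcm7, the neighbour of Mcm4 in the ring, the values were 105, 119 and 150 units in WAT KO, against 147, 132 and 136 units in WAT WT. The highest array of all was a KO array, replicate 3, and the difference was -0.15 (95% interval -0.40 to 0.10, adjusted p = 0.629).

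Outside the ring, Mcm8 had 42.4, 37.7 and 61.6 units in WAT KO, against 50.2, 47.2 and 50.1 units in WAT WT, so that KO replicate 3 was above and the other KO arrays below every WT array. Its difference was -0.06 (95% interval -0.35 to 0.23, adjusted p = 0.903). Mcm10 had 48.1, 40.4 and 36.7 units in WAT KO, against 33.4, 47.9 and 37.9 units in WAT WT. The groups were interleaved, and the difference was 0.05 (95% interval -0.25 to 0.35, adjusted p = 0.919). Averaged over the 7 partners, the deviation from the WAT WT mean was -0.20, -0.24 and -0.17 on the WAT KO arrays, against -0.09, -0.01 and 0.11 on the WAT WT arrays (log2 scale). The mean of KO replicate 3 leaned on Mcm2, which deviated there by -1.08, and 4 of the 7 partners were below the WT mean on that array, against 6 of 7 on each of the other KO arrays.

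Brown fat showed no call among the partners either, where 1.72% of all genes were called. The count was 0 of 7 at an unadjusted p under 0.05 in limma and 0 of 7 by the authors' deposited p-values after adjustment, and 4 differences were positive and 3 negative, with a median of 0.02 beside 0.03 over all genes. No partner had KO arrays entirely above or below the WT arrays, as 22.5% of all genes did. Mcm2 had 42, 31.5 and 33 units in BAT KO, against 56.7, 36.6 and 49.5 units in BAT WT. That was the most negative difference of the 7, at -0.30 (SE 0.19, 95% interval -0.72 to 0.12, adjusted p = 0.597), with overlapping arrays. For Mcm4 the order was the other way, with 46.4, 54.1 and 49.5 units in BAT KO, against 48.4, 40.7 and 45.9 units in BAT WT. Its difference was 0.11 (95% interval -0.14 to 0.37, adjusted p = 0.773).

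Mcm3 had 36.2, 46.4 and 32.9 units in BAT KO, against 30.9, 39.7 and 34.1 units in BAT WT, a difference of 0.09 (95% interval -0.23 to 0.41, adjusted p = 0.872). Mcm5 had 46.4, 46.4 and 29.7 units in BAT KO, against 37.1, 40.4 and 45.6 units in BAT WT, where the single low KO array brought the difference to -0.02 (95% interval -0.29 to 0.26, adjusted p = 0.982). Mcm7 had 98.4, 94.8 and 91.4 units in BAT KO, against 83.6, 101 and 89.6 units in BAT WT, a difference of 0.05 (95% interval -0.20 to 0.30, adjusted p = 0.927). All of these groups overlapped. Mcm8 had 43.1, 42.3 and 49.2 units in BAT KO, against 49.8, 48.3 and 37.2 units in BAT WT, and its difference rounded to 0 (95% interval -0.29 to 0.29, adjusted p = 0.999). Mcm10 had 42.8, 36.3 and 52.2 units in BAT KO, against 37.7, 39.8 and 51.1 units in BAT WT, a difference of 0.02 (95% interval -0.28 to 0.32, adjusted p = 0.978). In each of the last 2 genes the KO and WT arrays overlapped.

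**Figure D2:**
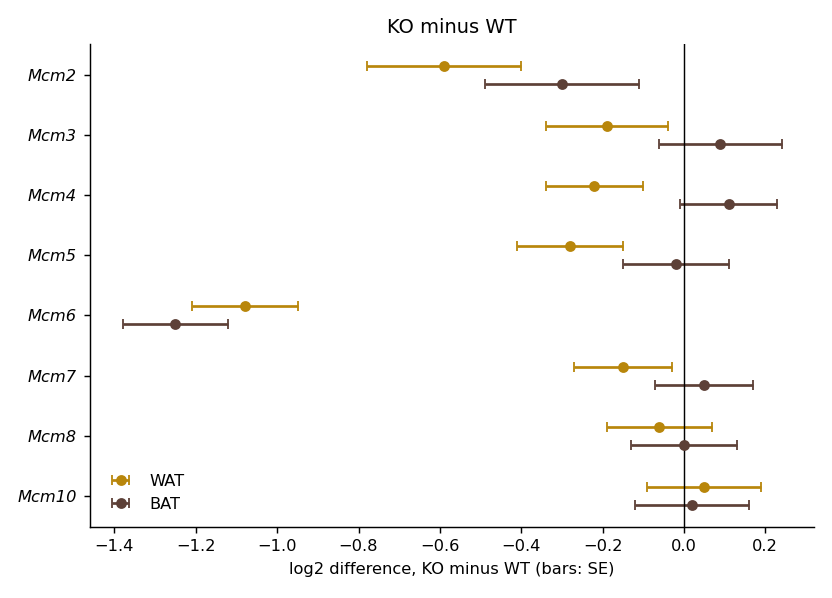
Log2(intensity + 16) difference, KO minus WT, of each MCM gene in WAT and in BAT (points, with bars of ± 1 SE from limma; n = 3 arrays per group). Mcm6 lies at -1.08 in WAT and -1.25 in BAT, Mcm2 at -0.59 and -0.30, and the other 6 genes between -0.28 and 0.11.

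The genotype differences of the partners were then compared between the depots, as the difference in BAT minus that in WAT. None of the 7 was called, against 0.592% of all genes (0.316% called higher), and limma gave 0 of 7 at an unadjusted p under 0.05. The differences of differences were positive for 6 of 7, with a median of 0.27 beside 0.03 over all genes, and reached 0.34 (SE 0.17, adjusted p = 0.573) in Mcm4. For Mcm2 the value was 0.29 (adjusted p = 0.795), and 0.04 (adjusted p = 0.962) without WAT KO replicate 3.

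Between the depots, every ring subunit was lower in brown fat. Of the 8 members, 6 fell in BAT against WAT in KO mice, where 26.8% of all genes fell, and 6 fell in WT mice, where 30.3% did. They were the same 6 genes, Mcm2, Mcm3, Mcm4, Mcm5, Mcm6 and Mcm7, which is the whole ring, and the share of all genes that fell in both genotypes was 24.2%. In each of these genes all BAT arrays were below all WAT arrays of the same genotype, as in 30.1% of all genes in KO mice and 34.9% in WT mice. The median difference of the 8 was -0.59 in KO mice and -0.86 in WT mice, beside 0.01 and -0.03 over all genes. Mcm6 was chosen by its values on these arrays, so the partners are also counted alone. Of the 7 partners, 5 fell in each genotype, with a median of -0.57 in KO mice and -0.83 in WT mice.

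In KO mice the depot difference of Mcm6 was -1.17 (SE 0.13) and in WT mice -1.0 (SE 0.13). These rest on the intensities by which Mcm6 was chosen, so its part in the counts above is a description. Mcm2 fell by 0.91 in KO mice (adjusted p = 0.00224) and fell by 1.20 in WT mice (adjusted p = 0.000258). Mcm4 fell by 0.78 in KO mice (adjusted p = 0.000208) and fell by 1.12 in WT mice (adjusted p = 9.95e-06). In linear terms the last of these is a mean of 45 ± 3.94 units in BAT WT against 118 ± 22.9 units in WAT WT (SD, n = 3 each). Mcm3 fell by 0.61 (adjusted p = 0.00501) in KO mice and fell by 0.89 (adjusted p = 0.000289) in WT mice, and Mcm5 fell by 0.57 (adjusted p = 0.00314) in KO mice and fell by 0.83 (adjusted p = 0.000166) in WT mice.

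Mcm7 had the smallest fall of the ring genes, 0.33 in KO mice (adjusted p = 0.0348) and 0.52 in WT mice (adjusted p = 0.00241). The call in KO mice was lost in 11 of 26 alternatives, among them leaving out WAT KO replicate 3 (-0.20, adjusted p = 0.101), WAT KO replicate 2 or any 1 BAT KO array, the fit to only the arrays compared and the authors' deposited p-values. Outside the ring, Mcm8 had a depot difference of -0.04 in KO mice (adjusted p = 0.833) and -0.10 in WT mice (adjusted p = 0.563). Mcm10 had 0.05 in KO mice (adjusted p = 0.804) and 0.08 in WT mice (adjusted p = 0.654). Mcm9, the repair partner of Mcm8 and no member here, was lower in BAT in KO mice (-0.77, adjusted p = 0.00161) and in WT mice (-0.77, adjusted p = 0.00129).

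**Figure D3:**
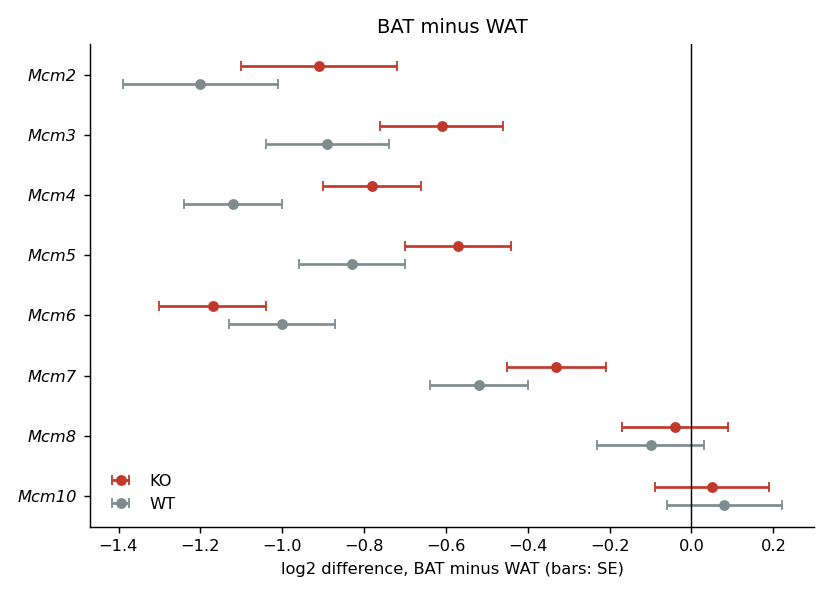
Log2(intensity + 16) difference, BAT minus WAT, of each MCM gene in KO and in WT mice (points, with bars of ± 1 SE from limma; n = 3 arrays per group). The 6 ring subunits lie between -0.33 and -1.20, and Mcm8 and Mcm10 between -0.10 and 0.08.

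The array medians differ between depots, so these values depend on how arrays are scaled. Centring each array on its median shifted the median of all genes by 0.27 in KO mice and 0.31 in WT mice, and quantile normalization shifted it by 0.12 in KO mice and 0.17 in WT mice. The share of calls that were lower in BAT went with it, at 57.1% as deposited, 26.6% centred and 38.4% after quantile normalization in KO mice, and 59.9%, 28.9% and 39.4% in WT mice. The 6 ring subunits were negative under each scaling in both genotypes. Mcm7 lost its call in both genotypes under both scalings, and Mcm3 (adjusted p = 0.0709) and Mcm5 (adjusted p = 0.0594) lost theirs in KO mice under centring. Mcm10 rose under centring, by 0.32 in KO mice (adjusted p = 0.0439) and 0.39 in WT mice (adjusted p = 0.0177), and the sign of Mcm8 turned in both genotypes under both scalings.

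Markers of other cells moved between the depots as well. Over all genes, 26.8% fell and 20.2% rose in KO mice, and 30.3% fell and 20.3% rose in WT mice. The 6 macrophage markers summed to 357 to 507 units in BAT KO, against 1070 to 1890 units in WAT KO, and to 391 to 495 units in BAT WT, against 1260 to 1690 units in WAT WT. Of these 6, 6 fell in KO mice and 5 fell in WT mice. Fibroblast and preadipocyte markers summed to 2990 to 3470 units in BAT KO, against 8100 to 11700 units in WAT KO, and 5 of 6 fell in each genotype. The remaining 1, Pdgfrb, rose in WT mice. Epididymis markers were at 9.98 to 15.6 units in BAT KO, against 8940 to 31000 units in WAT KO, and 5 of 5 mesothelium markers fell in each genotype. Endothelial markers went the other way, with 3 of 5 higher in BAT in KO mice and 4 of 5 in WT mice, as did skeletal muscle markers, of which 6 of 6 rose in each genotype. The part of these cells in the depot difference of the ring genes was not tested.

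The replication list held 45 other genes of origin licensing, the fork and the polymerases, and all were measured. In white fat 0 of 45 were called (5 at an unadjusted p under 0.05 in limma), with a median difference of -0.08, and 1 was called without WAT KO replicate 3. In brown fat 0 of 45 were called (4 at an unadjusted p under 0.05), with a median of 0.01. The authors' deposited p-values called 0 of them in WAT and 2 in BAT after adjustment. Cdt1, the loader of the ring, had differences of -0.16 in WAT and 0.12 in BAT, Cdc6, the ATPase that works with it, -0.07 and -0.03, and Gmnn, the inhibitor of Cdt1, 0.25 and 0.05, and none of these passed the test. Orc1, a subunit of the origin recognition complex, had -0.06 in WAT and 0 in BAT, Cdc45, the partner of the active ring, -0.22 and -0.17, and Mcm9 0.04 in both depots, again without a call. Pcna, the sliding clamp of the fork, had all KO arrays below all WT arrays in each depot, as 2.07% of all genes did. Its differences were -0.27 in WAT (adjusted p = 0.198) and -0.20 in BAT (adjusted p = 0.402). In BAT the groups nearly touched, with the highest KO array at 411 units and the lowest WT array at 412 units.

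Of the S-phase list, which covers nucleotide synthesis, chromatin assembly and E2F factors, 19 of 20 genes were measured. In WAT 0 of 19 were called (2 at an unadjusted p under 0.05 in limma, 1 by the authors' linear p-values after adjustment), with a median of -0.09, and in BAT 0 of 19 (2 at an unadjusted p under 0.05, 1 by the authors' p-values), with a median of 0.04. Of the mitotic list, 23 of 24 genes were measured. In WAT 5 of 23 fell and 0 rose, where 1.15% of all genes fell. The median difference was -0.47, 22 of 23 differences were negative and 14 had an unadjusted p under 0.05, a count with no share of all genes beside it.

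The 5 called genes were Top2a, Cdk1, Kif20a, Bub1b and Aurkb. Top2a, the topoisomerase that untangles sister chromosomes, averaged 50.6 ± 4.71 units in WAT KO and 102 ± 27.6 units in WAT WT (SD, n = 3 each), a difference of -0.80 (SE 0.17, adjusted p = 0.0274). Cdk1, the kinase that drives entry into mitosis, averaged 96.7 ± 16.3 units in WAT KO and 172 ± 39.9 units in WAT WT, a difference of -0.72 (SE 0.16, adjusted p = 0.0377). Kif20a, a kinesin of cytokinesis, fell by 0.64 (adjusted p = 0.0384), Bub1b, a checkpoint kinase, by 0.56 (adjusted p = 0.0388), and Aurkb, the kinase of the chromosomal passenger complex, by 0.52 (adjusted p = 0.0405). The count of 5 changed when single arrays were left out. It was 0 without WAT WT replicate 2 or without WAT WT replicate 3, 1 without WAT KO replicate 1 or 2, 3 without WAT WT replicate 1, and 7 without WAT KO replicate 3. Leaving out a BAT array, which shares only the estimate of spread, also moved it, to 1 without BAT WT replicate 2 or any 1 BAT KO array and to 2 without BAT WT replicate 1. Brown adipocyte markers, as given above, were higher in the same WAT KO arrays. Skeletal muscle markers were higher there too, with sums of 341 to 1120 units, against 103 to 126 units in WAT WT, and 1 of 6 called higher. Fibroblast and preadipocyte markers summed to 8100 to 11700 units in WAT KO, against 11200 to 16900 units in WAT WT, with 1 of 6 called lower. Mesothelium markers summed to 2120 to 2550 units in WAT KO, against 3040 to 3270 units in WAT WT, with 1 of 5 called lower. That list was mixed, with Krt19 and Upk1b lower on every KO array and Lrrn4 at 0.42 (limma, adjusted p = 0.554). Macrophage markers summed to 1070 to 1890 units in WAT KO, against 1260 to 1690 units in WAT WT. Endothelial markers summed to 1260 to 2490 against 1200 to 1530 units, and lymphocyte markers to 323 to 421 against 331 to 379 units. In these last lists 0 genes were called in WAT. The part of these cells in the fall was not tested.

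In BAT 0 of 23 mitotic genes were called (0 at an unadjusted p under 0.05 in limma, 0 by the authors' p-values), with a median of 0.01. Mki67, the antigen of cycling cells, had -0.55 in WAT (adjusted p = 0.386) and -0.56 in BAT (adjusted p = 0.409). Of the differences between the depots' genotype differences, 0 of 23 mitotic genes (10 at an unadjusted p under 0.05, median 0.41), 0 of 19 S-phase genes (5 at an unadjusted p under 0.05) and 1 of 45 replication genes were called. The last was Prim1, the catalytic subunit of primase, at 0.88 (SE 0.17, adjusted p = 0.0403). The list's count became 0 under both other scalings and in 9 of the 12 fits that left out 1 array. Prim1 averaged 44.1 ± 1.52 units in BAT KO and 26.7 ± 5.78 units in BAT WT, and 40.7 ± 6.31 units in WAT KO and 57.4 ± 5.25 units in WAT WT (SD, n = 3 each), with neither depot's own difference called.

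**Figure D4:**
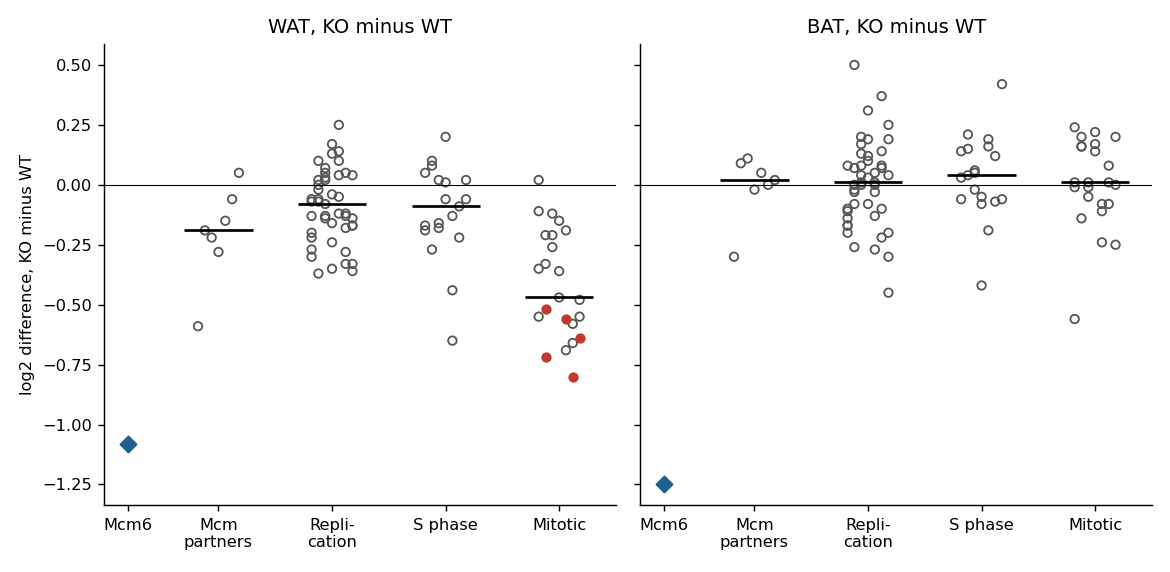
Log2(intensity + 16) difference, KO minus WT, in WAT (left) and BAT (right) of Mcm6 (diamond), its 7 partners and the replication, S-phase and mitotic lists, with 1 circle per gene, a line at each median and red filled circles for genes called by limma. The 5 filled circles are mitotic genes in WAT, and no other gene of these lists is filled.

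In the depot comparison each of the 3 lists held genes of both directions. Of the 45 replication genes, 6 rose and 17 fell in KO mice, and 7 rose and 18 fell in WT mice, where 20.2% of all genes rose and 26.8% fell in KO mice and 20.3% rose and 30.3% fell in WT mice. Gmnn had the largest rise of the genes named here, 1.56 in KO mice and 1.76 in WT mice, and Orc3, another origin recognition subunit, rose by 0.79 in KO mice and rose by 0.89 in WT mice. Cdc45 rose by 0.52 in KO mice and rose by 0.48 in WT mice. Among those that fell were Lig1, the ligase that joins Okazaki fragments (-1.23 in KO and -1.94 in WT mice), Pole, the leading-strand polymerase (-1.28 in KO and -1.12 in WT mice), Gins2, a subunit of GINS (-1.01 in KO mice), and Pold3, a subunit of the lagging-strand polymerase (-1.11 in WT mice). Of the 19 S-phase genes, 2 rose and 4 fell in KO mice and 1 rose and 7 fell in WT mice, with Chaf1b, a chromatin assembly factor, at -1.22 in KO and -2.06 in WT mice. Of the 23 mitotic genes, 3 rose and 7 fell in KO mice and 1 rose and 15 fell in WT mice, with Top2a at -1.17 in KO and -1.90 in WT mice and Cenpa, the centromeric histone, at 0.75 in KO and 0.55 in WT mice.

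The direction of these lists depended on the scaling. The median of the replication list in KO mice was -0.06 as deposited, 0.14 after quantile normalization and 0.21 after centring, and in WT mice it was -0.17, 0.08 and 0.14. For the S-phase list it was 0.01, 0.20 and 0.28 in KO mice and -0.17, 0.09 and 0.13 in WT mice. The mitotic list had -0.13, -0.02 and 0.14 in KO mice and -0.61, -0.39 and -0.30 in WT mice.

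Likeness over the 12 arrays is given as a description, since the arrays share depots and genotypes and the members were chosen with results known. Pearson's r with Mcm6 was 0.807 for Mcm2, 0.766 for Mcm5, 0.703 for Mcm4, 0.691 for Mcm3 and 0.665 for Mcm7, against 0.278 for Mcm8 and -0.301 for Mcm10. The 5 genes outside the family closest to Mcm6 were Snapc1 (r = 0.984), Nedd1 (0.972), Commd7 (0.968), Spg11 (0.967) and Cpq (0.964). Each had a negative genotype difference in both depots, with Snapc1 at -0.71 in WAT and -0.76 in BAT and Nedd1 at -0.36 in WAT and -0.55 in BAT. The 5 closest to the mean of Mcm2, Mcm3, Mcm4, Mcm5 and Mcm7 were Tubb5 (r = 0.993), Slamf9 (0.991), Top2a (0.99), Wsb1 (0.99) and Cd68 (0.988), the last a macrophage marker. Their genotype differences lay between -0.80 and -0.34 in WAT and between -0.12 and 0.06 in BAT, and their depot differences in WT mice between -1.51 and -1.98. Genes picked by likeness over these arrays share the pattern of their target by choice. The differences of both sets are therefore not separate results.

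The genes beside Mcm6 on chromosome 1 were listed as well. The nearest 3 measured genes on either side were Mir128-1, Ubxn4, Lct, Cxcr4, Thsd7b and Cd55b. Between the genotypes 0 of 6 were called in WAT or in BAT, where 2.42% and 1.72% of all genes were. A count over 6 genes cannot be told apart from these shares. Their differences ran from -0.18 to 0.34 in WAT and from -0.12 to 0.41 in BAT. Over the 48 neighbours of all 8 members, 5 were called in WAT, where 2.42% of all genes were, and 1 in BAT, where 1.72% were. Of the 5, 2 lay beside Mcm8, 2 beside Mcm10 and 1 beside Mcm2.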

How the data were processed

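The PLIER intensities were deposited by the authors as 1 linear value per transcript and array, with the scaling between arrays and the genome build not given in the sources used here. Per the file headers, the authors' comparison tables hold unadjusted p-values of regularized tests made with Cyber-T on linear values and on natural logs. Signed folds of linear group means, which are scores that are negative where the second group is lower, also stand in the authors' deposited tables. The 24 columns of per-sample values that these tables repeat were not used.

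Of 35557 transcripts, 28925 were tested by the authors, 21789 named 1 gene, 1621 several and 12147 none by the platform annotation, and 21698 of those naming 1 gene matched the RefSeq gene table (91 did not). The brightest tested transcript per gene was kept (19933 genes). limma 3.58.1 in R 4.3.3 was fitted to log2(intensity + 16) with 4 group means over 12 arrays (8 residual degrees of freedom), and p-values were adjusted by Benjamini-Hochberg over all genes for each of 5 comparisons. The comparisons share arrays. The fit was tested on simulated data. Array number, 3 per group, limits the precision. The p-values rest on the spread between samples labelled as biological replicates, estimated over all 4 groups together.

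Members and lists were chosen with earlier results of these data known. Named were the members, Per2, up to 4 called genes per list and direction with the smallest adjusted p (shortened in the depot comparison, and all 5 of the mitotic genes called in WAT), 8 fixed pathway genes, the 3 measured neighbours on either side of Mcm6 and the 5 most alike genes. Alternatives were the added constants, scaling, array weights, variance model, replicate block, filters, call rules, the authors' p-values and leaving out each array.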

Additional observations from a re-analysis of the deposited data

Results flagged for a closer look

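Mcm4 had opposite signs in the depots: all 3 KO arrays lay below the WT mean in WAT and all 3 lay above it in BAT. The difference of its genotype differences, BAT minus WAT, was 0.34 on the log2(intensity + 16) scale (SE 0.17), and it did not pass the test (limma, adjusted p = 0.573 over all genes).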

How the results depend on the processing

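Calls of the 7 partners stayed at 0 in WAT, BAT and the difference of differences under every alternative run, apart from 1 in WAT (Mcm2) when a call needed only a fold of 1.5 and a p under 0.05 before adjustment (the unadjusted rule). Mcm6 was lower in KO under each alternative, between -1.31 and -0.71 in WAT and between -2.05 and -0.59 in BAT, the widest values coming from the added constants. The cause of the shifts below was not tested.

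In WAT, the mitotic count of 5 became 2 with a constant of 1, 3 with a constant of 64, 3 after quantile normalization, 0 with only the arrays compared, 11 with array weights and 1 among brighter genes, and ranged over 0 to 7 with arrays left out. Array weights called 3 replication and 2 S-phase genes in WAT, and 2 replication and 1 S-phase gene in BAT. The authors' p-values called 1 S-phase gene in WAT (linear) and, on either scale, 2 replication genes and 1 S-phase gene in BAT. The unadjusted rule called 1 S-phase gene in WAT. With arrays left out, replication counts ranged over 0 to 1 in WAT and 0 to 2 in BAT, and S-phase counts over 0 to 1 in BAT.

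Between depots, restricting to brighter genes left 1 member (Mcm7, the only one that passes) in each genotype, 11 replication genes in KO and 10 in WT, 3 S-phase genes in WT, and 2 mitotic genes in KO and 3 in WT. The unadjusted rule gave 11 replication genes in KO and 13 in WT, 4 S-phase genes in WT and 6 mitotic genes in KO. S-phase calls in KO were 10 after quantile normalization, 14 after centring and 11 with array weights.

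Of the difference of differences, the 1 replication call became 0 with a constant of 1, quantile normalization, centring, trend and robust, the replicate block and brighter genes, and 0 to 1 with arrays left out. The unadjusted rule gave 2 replication, 2 S-phase and 4 mitotic genes.

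Signs turned for small differences. Mcm8 reached 0 in BAT with a constant of 1, its depot difference became 0.13 (quantile), 0.23 (centred) and 0.12 (weights) in KO and 0.14 (quantile) and 0.21 (centred) in WT, and its difference of differences -0.01 (quantile). Mcm10 became -0.01 in BAT (quantile), with a difference of differences of 0.02 (weights), and that of Mcm6 became 0.11 with a constant of 64. With arrays left out, the ranges that crossed 0 were, for Mcm8, -0.22 to 0.05 in WAT, -0.10 to 0.06 in BAT, -0.15 to 0.12 between depots in KO and -0.05 to 0.22 for the difference of differences. For Mcm10 they were -0.03 to 0.16 in WAT, -0.08 to 0.12 in BAT, -0.05 to 0.14 in KO, -0.02 to 0.18 in WT and -0.14 to 0.06. In BAT they were -0.01 to 0.17 for Mcm3, -0.09 to 0.13 for Mcm5 and -0.01 to 0.11 for Mcm7.

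Same-numbered arrays did not deviate together (correlations of -0.119 to 0.092), and they were treated as unpaired. The correlations cannot show whether same-numbered WAT and BAT arrays came from the same mouse, which the labels do not say. With the replicate block the partners' counts were 0 in each genotype comparison, members called between depots were 5 in KO and 6 in WT, and the mitotic count in WAT was 4.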

Other observations

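Per2 and Mcm6 both lie on chromosome 1. Of the 123 measured genes between them, 2 were called in WAT (1.63%) and 2 in BAT (1.63%), beside 2.42% and 1.72% of all genes. This stretch was chosen after the values were seen, and the labels give no strain.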
